A study of Rattus norvegicus with 4 samples.

Results

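The genes described here are 10 carriers and anchors of selective autophagy in heart muscle cells treated with carfilzomib, an irreversible proteasome inhibitor used against multiple myeloma. They were taken by symbol from the deposited expression table: 5 cargo receptors (Sqstm1, Nbr1, Optn, Tax1bp1 and Tollip) and 5 genes of the ATG8 family (Map1lc3a, Map1lc3b, Gabarap, Gabarapl1 and Gabarapl2). All 10 had a row among the 18699 genes of the table, and all 10 were among the 14519 that passed a filter on low counts. The cells were neonatal rat ventricular myocytes, prepared from wild-type Sprague Dawley rats aged 1 to 3 days. All cultures held serum, antibiotics and 0.1 mM bromodeoxyuridine, which holds back dividing cells that are not myocytes. The carfilzomib group received 1 µM of the drug for 24 h, the vehicle group received the carrier alone for 24 h, and RNA of 2 libraries per group was sequenced. The origin of the 2 libraries of each group, as separate animals or cultures, is not labelled, and p-values therefore rest on the spread between libraries that may be technical repeats.

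In selective autophagy a receptor protein holds a tagged cargo, often one marked with ubiquitin, and at the same time binds an ATG8 protein through a short motif called the LIR. ATG8 proteins are small ubiquitin-like proteins that are cut by ATG4 proteases and then joined to a lipid of the growing autophagosome membrane, so cargo and membrane are brought together. In mammals the ATG8 proteins form the LC3 and the GABARAP subfamilies. Heart muscle cells, which seldom divide, rely on this route and on the proteasome to clear damaged proteins and mitochondria, and blocking the proteasome in cultured cells is known to bring p62 into ubiquitin-rich bodies.

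The libraries held between 18655499 and 18884362 estimated counts. Markers fixed for 5 cell types were measured beside the genes of interest. All 10 cardiomyocyte markers were detected and all 10 fell with carfilzomib, with summed levels of 5573 to 5808 CPM (counts scaled to library depth) in carfilzomib libraries and 20533 to 21260 CPM in vehicle libraries. The 10 fibroblast markers, all of which fell too, summed to 15014 to 15734 CPM in carfilzomib libraries and 28005 to 28545 CPM in vehicle libraries, so fibroblast markers were well detected in cultures labelled as myocytes. All 5 smooth muscle markers fell, summing to 1296 to 1334 CPM with carfilzomib and 3761 to 3893 CPM with vehicle, and so did all 6 tested macrophage markers. Macrophage markers summed to 24.2 to 25.4 CPM with carfilzomib and 46.4 to 51.9 CPM with vehicle, and endothelial markers, of which 1 of 6 rose and 2 fell, to 61.2 to 62.4 CPM with carfilzomib and 61.9 to 62.6 CPM with vehicle. By the same test, edgeR at an adjusted p of 0.05, 30.6% of all genes tested rose and 30.1% fell. For the endothelial markers these shares were 16.7% and 33.3%. No marker was at 0 in every library. In these bulk samples fewer cells of a type and less RNA per cell cannot be told apart, and the part that the cell mix has in the changes given here was not tested.

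The comparison of carfilzomib with vehicle, which asks how the drug acts on heart cells, found the receptor genes and part of the ATG8 family higher with the drug. All 5 receptor genes rose, Sqstm1 by far the most at 4.85-fold. Tollip rose least, at 1.12-fold, and its call was kept in 8 of 13 alternative analyses. In the ATG8 family Gabarapl1 rose 3.32-fold, Gabarapl2 rose 2.27-fold, Map1lc3b rose 1.23-fold, Map1lc3a fell by 0.67 on the log2 scale, and Gabarap did not pass the test. Thus 9 of the 10 genes passed the threshold, an adjusted p of 0.05 in edgeR (quasi-likelihood F test, Benjamini-Hochberg over all genes), against 60.7% of all genes tested. Of the 10, 8 were called higher, where 30.6% of all genes were, and 1 was called lower, where 30.1% were. The CPM values of the groups did not overlap for 9 of the 10 genes, where this held for 79.9% of all genes, and 8 of them lay higher with carfilzomib, where 39.8% of all genes did. A rise of at least 2-fold that also passed the threshold was reached by 3 of the 10 and by 3.74% of all genes. The 10 genes had a median log2 fold change of 0.75, against 0.00 over all genes tested, and the median absolute log2 fold change over all genes was 0.34. The members were chosen with earlier results of these data known, so these shares describe the list and carry no test of it.

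**Figure D1:**
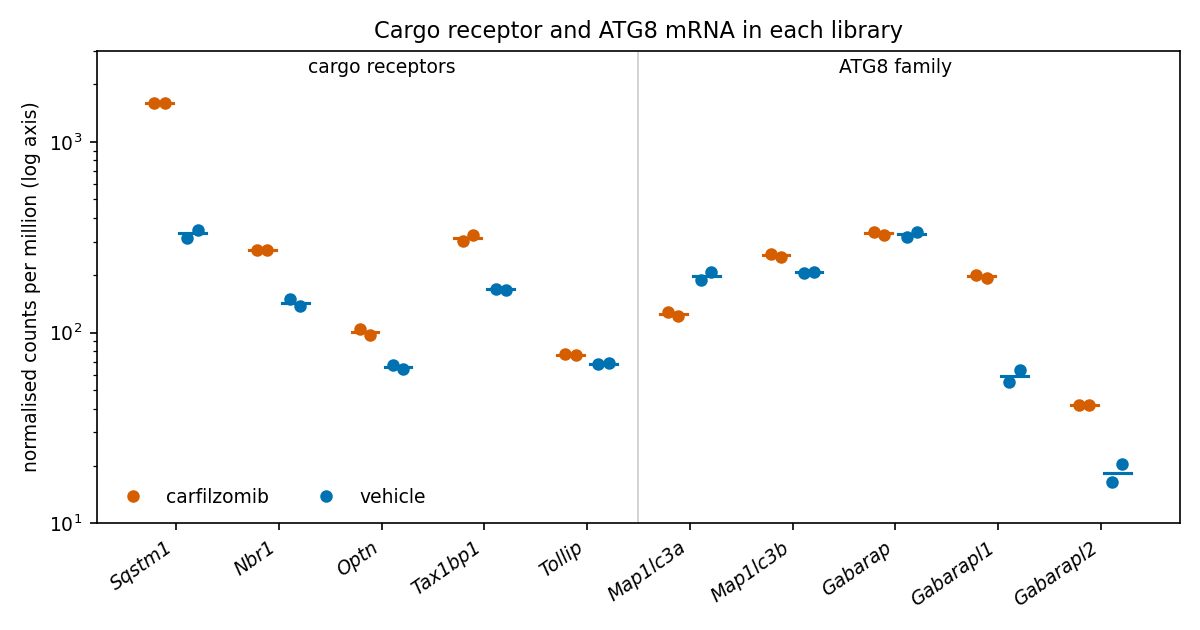
Normalised counts (CPM, log axis) of the 5 cargo receptors and 5 ATG8 genes, with a point per library and a short line at the mean of the 2 libraries of a group. Sqstm1 stands at 1603 CPM in both carfilzomib libraries, against 315 and 347 CPM with vehicle, Map1lc3a is lower with carfilzomib, and the groups overlap for Gabarap alone.

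The region around the start of 9 of the 10 genes, all but Map1lc3a, was read from RefSeq (GRCr8), as 250 bases before the annotated start and 50 after it, while the submitters' processing notes name the older build Rnor_6.0. These 4 are printed because they set the receptor and the ATG8 gene that rose most, Sqstm1 and Gabarapl1, beside 2 ATG8 genes that moved little, Map1lc3b and Gabarap. Letters run 5′ to 3′ along the gene, and capitals mark the core TGACNNNGC of the antioxidant response element, the site at which NRF2 binds.
Sqstm1, chr10:35037701-35038000, minus strand: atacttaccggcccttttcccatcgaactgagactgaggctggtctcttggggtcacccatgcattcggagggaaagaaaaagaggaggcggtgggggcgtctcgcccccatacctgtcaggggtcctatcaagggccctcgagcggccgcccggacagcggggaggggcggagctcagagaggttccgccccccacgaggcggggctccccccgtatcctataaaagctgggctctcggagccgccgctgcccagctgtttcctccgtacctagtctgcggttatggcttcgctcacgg
Gabarapl1, chr4:164666082-164666381, plus strand: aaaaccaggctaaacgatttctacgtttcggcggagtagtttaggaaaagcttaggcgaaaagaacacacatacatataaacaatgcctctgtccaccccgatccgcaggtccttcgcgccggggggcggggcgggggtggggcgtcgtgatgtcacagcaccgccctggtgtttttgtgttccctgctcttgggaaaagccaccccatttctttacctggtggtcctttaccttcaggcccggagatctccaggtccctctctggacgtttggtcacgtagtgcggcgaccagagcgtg
Map1lc3b, chr19:66574345-66574644, plus strand: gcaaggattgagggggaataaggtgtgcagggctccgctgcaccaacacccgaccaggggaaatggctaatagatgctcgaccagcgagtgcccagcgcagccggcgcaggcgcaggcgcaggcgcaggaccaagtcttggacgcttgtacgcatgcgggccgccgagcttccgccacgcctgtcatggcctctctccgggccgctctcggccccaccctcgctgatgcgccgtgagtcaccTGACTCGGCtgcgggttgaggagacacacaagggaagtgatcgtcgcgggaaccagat
Gabarap, chr10:55213215-55213514, plus strand: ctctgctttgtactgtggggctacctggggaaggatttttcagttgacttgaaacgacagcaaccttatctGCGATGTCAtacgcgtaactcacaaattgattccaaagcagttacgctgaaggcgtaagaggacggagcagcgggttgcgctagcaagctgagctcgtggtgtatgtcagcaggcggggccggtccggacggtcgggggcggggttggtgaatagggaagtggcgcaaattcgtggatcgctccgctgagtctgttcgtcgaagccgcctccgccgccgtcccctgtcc
Only Map1lc3b and Gabarap held that core among the 9 windows, searched on both strands, at 8 and 179 bases upstream of the start, the second of them on the opposite strand. It is found in 12.1% of all 33469 promoter windows of the same length. The E-box CACGTG and the heat shock element core GAANNTTC, also searched on both strands, stood in 0 of the 9 windows, and in 6.42% and 8.59% of all windows. None of the 3 motifs overlapped another. The windows not printed, those of Nbr1, Optn, Tax1bp1, Tollip and Gabarapl2, held none of the 3, and Tollip moved less than Map1lc3b. Every one of the 9 windows was richer in G and C than the median window, 54.7% to 65.7% against 51.7%. A match is a description of the letters, not of binding, and no match says only that these letters are not in this window.

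Sqstm1 (gene ID 113894) encodes p62, which binds ubiquitin chains, forms filaments with itself and also holds KEAP1, the protein that keeps NRF2 low. Sqstm1 was at 1603 and 1603 CPM in carfilzomib libraries, against 315 and 347 CPM in vehicle libraries. Both carfilzomib libraries lay far above both vehicle libraries, and they differed from each other by less than the vehicle libraries did. The log2 fold change was 2.28 (SE 0.05, n = 2 per group), adjusted p = 1.97e-14 in edgeR. Among the 10001 tested genes with a mean of at least 10 CPM, Sqstm1 had the rise of rank 17. On the scale of FPKM, which is also scaled to gene length, it was the gene of rank 77 among all tested genes with carfilzomib and of rank 456 with vehicle.

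Nbr1 (gene ID 303554) encodes the receptor closest to p62 in build, which joins p62 in its ubiquitin-rich bodies. Nbr1 was at 269.9 and 272 CPM with carfilzomib and at 149 and 137 CPM with vehicle. Its log2 fold change was 0.92 (SE 0.05), adjusted p = 3.34e-10 in edgeR. Tax1bp1 (gene ID 246244), whose protein is drawn to those bodies by NBR1, moved by a like amount. It was at 301 and 326 CPM with carfilzomib and at 169 and 167 CPM with vehicle, a log2 fold change of 0.90 (SE 0.05), adjusted p = 3.52e-10 in edgeR. For both genes the groups were well apart.

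Optn (gene ID 246294) encodes optineurin, a receptor for ubiquitin-tagged mitochondria and bacteria that the kinase TBK1 switches on. Optn was at 104 and 96.6 CPM with carfilzomib and at 67.7 and 64.6 CPM with vehicle, with a log2 fold change of 0.60 (SE 0.06), adjusted p = 3.89e-07 in edgeR. Tollip (gene ID 361677) encodes an adaptor of endosomes with a ubiquitin-binding CUE domain. Tollip was at 77.5 and 75.9 CPM with carfilzomib and at 68.1 and 69.1 CPM with vehicle, groups that did not overlap but lay close. Its log2 fold change of 0.16 ± 0.06 (SE) had an edgeR adjusted p of 0.0207. That call was lost with DESeq2, at an adjusted p of 0.111, and with any of 3 libraries left out, at edgeR adjusted p of 0.121 without carfilzomib replicate 1, 0.0578 without carfilzomib replicate 2 and 0.0615 without vehicle replicate 1.

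Per length, Sqstm1 held a larger part of the receptor transcripts with carfilzomib. The summed level of the 5 receptor genes was 1082 and 1089.7 FPKM with carfilzomib and 298 and 307 FPKM with vehicle. Sqstm1 made up 79.9% and 79.4% of that sum in carfilzomib libraries, against 57.2% and 59.9% in vehicle libraries. The other 4 receptors together held 217 and 224 FPKM with carfilzomib and 128 and 123 FPKM with vehicle, 1.76 times as much. The ratio of Sqstm1 to Nbr1 was 13.6 and 13.5 in carfilzomib libraries and 4.99 and 5.84 in vehicle libraries. Neither group overlapped the other in any of these values, and the exact two-sided permutation test of the ratio gave p = 0.333, the smallest that 2 against 2 libraries allow.

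Gabarapl1 (gene ID 689161) encodes a GABARAP subfamily protein of the autophagosome membrane and was the ATG8 gene that moved most. It was at 200.1 and 194 CPM with carfilzomib and at 55.2 and 63.4 CPM with vehicle, so that every carfilzomib value was more than 3 times every vehicle value. Its log2 fold change was 1.73 (SE 0.06), adjusted p = 1.002e-11 in edgeR, and its rise ranked 47 among tested genes of at least 10 CPM. Gabarap (gene ID 58974), which names the subfamily, was at 338 and 326 CPM with carfilzomib and at 317 and 338 CPM with vehicle. These values overlapped. The log2 fold change of Gabarap was 0.02 with a 95% interval from -0.08 to 0.11 and an edgeR adjusted p of 0.74, so a rise larger than the upper bound lies outside the interval. It was -0.01 without carfilzomib replicate 1 and -0.03 without vehicle replicate 1.

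Gabarapl2 (gene ID 64670), also called GATE-16, encodes the third GABARAP subfamily protein, and its row was the only one of the 10 with decimal counts. It held 796.69 and 792.01 estimated counts with carfilzomib and 305.02 and 378.85 with vehicle. A search of the whole table for rows whose decimals complete those of Gabarapl2 to a whole number in every library, within 0.015, found 1 row, LOC100359937. RefSeq (GRCr8) lists its gene ID as Gabarapl3, a pseudogene. The row held 2825.31 and 2806.99 counts with carfilzomib and 1216.98 and 1197.15 with vehicle. The sums of the 2 rows were the whole numbers 3622 and 3599 with carfilzomib and 1522 and 1576 with vehicle, as they would be if reads matching both rows had been divided between them, a step that no label or header describes and that was not tested.

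Gabarapl2 alone took 22.00% and 22.01% of the summed reads in carfilzomib libraries and 20.04% and 24.04% in vehicle libraries. By itself it was at 41.8 and 42.0 CPM with carfilzomib and at 16.4 and 20.5 CPM with vehicle, with a log2 fold change of 1.18 (SE 0.09), adjusted p = 4.88e-08 in edgeR. The vehicle libraries differed more than the carfilzomib libraries. Summed with its partner row, a choice made after seeing the data, it was at 189.8 and 191 CPM with carfilzomib and at 82.0 and 85.3 CPM with vehicle. The log2 fold change was then 1.19 ± 0.05 (SE), with an edgeR adjusted p of 1.15e-11. The rise had the same size on either reading, and its standard error was smaller for the sum. The level was not the same. Per length Gabarapl2 was at 27.4 ± 0.13 FPKM with carfilzomib and 11.8 ± 1.82 FPKM with vehicle (SD, n = 2). The FPKM of the 2 rows, each scaled to its own length, summed to 198 ± 0.81 with carfilzomib and 84.8 ± 1.03 with vehicle. Those lengths differ: in carfilzomib replicate 1 Gabarapl2 had 41.8 CPM and 27.3 FPKM, and LOC100359937 had 148 CPM and 170 FPKM. The sum would be lower if all reads were scaled to the length of Gabarapl2.

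The LC3 genes moved in opposite directions. Map1lc3b (gene ID 64862) encodes LC3B, the form most used to mark autophagosomes. Map1lc3b was at 258 and 249 CPM with carfilzomib and at 205 and 209 CPM with vehicle, a log2 fold change of 0.29 (SE 0.04), adjusted p = 2.31e-05 in edgeR. Map1lc3a (gene ID 362245), which encodes LC3A, was the only one of the 10 genes that fell. It was at 128 and 122 CPM with carfilzomib and at 189 and 208 CPM with vehicle, with a log2 fold change of -0.67 (SE 0.05), adjusted p = 3.45e-08 in edgeR. Neither LC3 gene had overlapping groups. Map1lc3b per length was 1.11 and 1.12 times Map1lc3a in carfilzomib libraries and 0.601 and 0.553 times in vehicle libraries, so the more abundant LC3 gene was Map1lc3b with carfilzomib and Map1lc3a with vehicle. The exact two-sided permutation p of that ratio was 0.333, again the smallest possible. In CPM, which is not scaled to gene length, Map1lc3b was above Map1lc3a with vehicle too, at 205 against 189 and 209 against 208.

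**Figure D2:**
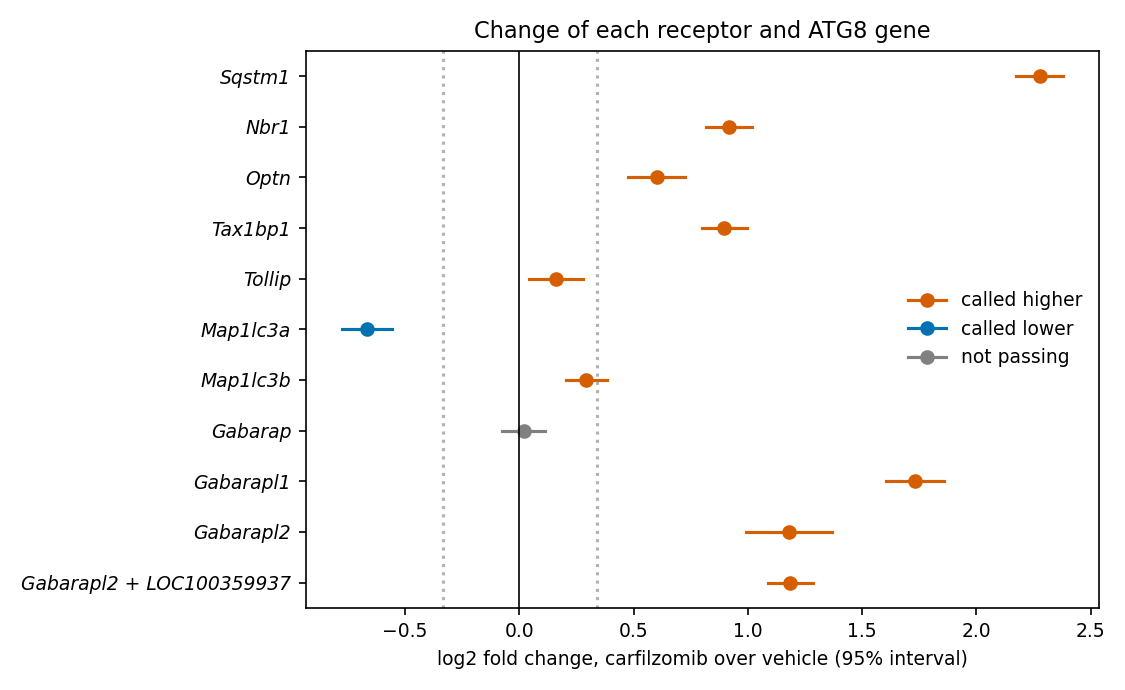
Log2 fold change of carfilzomib over vehicle for each gene (point) with its 95% interval from edgeR (line), and for the summed rows of Gabarapl2 and LOC100359937. Dotted lines stand at the median absolute log2 fold change of all genes tested, 0.34, on both sides of their median, and Sqstm1 (2.28), Gabarapl1 (1.73) and Gabarapl2 (1.18) lie farthest to the right, with Map1lc3a (-0.67) alone on the left.

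Summed over the family, the ATG8 genes lay closer in the groups than the receptors did, at 1.09 against 3.59 times the vehicle level. The summed level of the 5 ATG8 genes was 888 and 857 FPKM with carfilzomib and 775 and 828 FPKM with vehicle. The LC3 genes summed to 297 and 285 FPKM with carfilzomib and 326 and 346 FPKM with vehicle. The GABARAP genes summed to 591 and 572 FPKM with carfilzomib and 448 and 482 FPKM with vehicle. In all 3 sums the groups did not overlap. With the FPKM of LOC100359937, scaled to that row's own length, added to Gabarapl2, the ATG8 sum was 1057 and 1028 FPKM with carfilzomib. It was 848 and 901 FPKM with vehicle, a ratio of 1.19. Set against an ATG8 gene, the ratio of Sqstm1 to Map1lc3b was 5.54 and 5.74 in carfilzomib libraries and 1.39 and 1.49 in vehicle libraries.

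Within the ATG8 pool Map1lc3a had a lower share and Gabarapl1 a higher share with carfilzomib. Map1lc3a held 15.8% ± 0.11 of the summed FPKM with carfilzomib and 26.6% ± 0.45 with vehicle (SD, n = 2 per group). Gabarapl1 held 13.9% ± 0.05 with carfilzomib and 4.44% ± 0.21 with vehicle. Gabarap was the most abundant ATG8 transcript in both groups, at 49.6% ± 0.03 with carfilzomib and 52.1% ± 0.18 with vehicle. Map1lc3b held 17.6% ± 0.0042 with carfilzomib and 15.4% ± 0.65 with vehicle, and Gabarapl2 held 3.14% ± 0.09 with carfilzomib and 1.47% ± 0.16 with vehicle. On this scale the differences between groups were larger than the spread within them for each of the 5 genes, and each had an exact two-sided permutation p of 0.333, the smallest possible. With the FPKM of LOC100359937, scaled to that row's own length, counted with it, Gabarapl2 held 19.0% ± 0.46 with carfilzomib and 9.71% ± 0.29 with vehicle. The difference of Map1lc3b then shrank to 0.657 percentage points. As a share of summed CPM with that row added, the difference of Map1lc3b turned to -0.53 percentage points with overlapping groups (exact two-sided permutation p = 0.667).

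**Figure D3:**
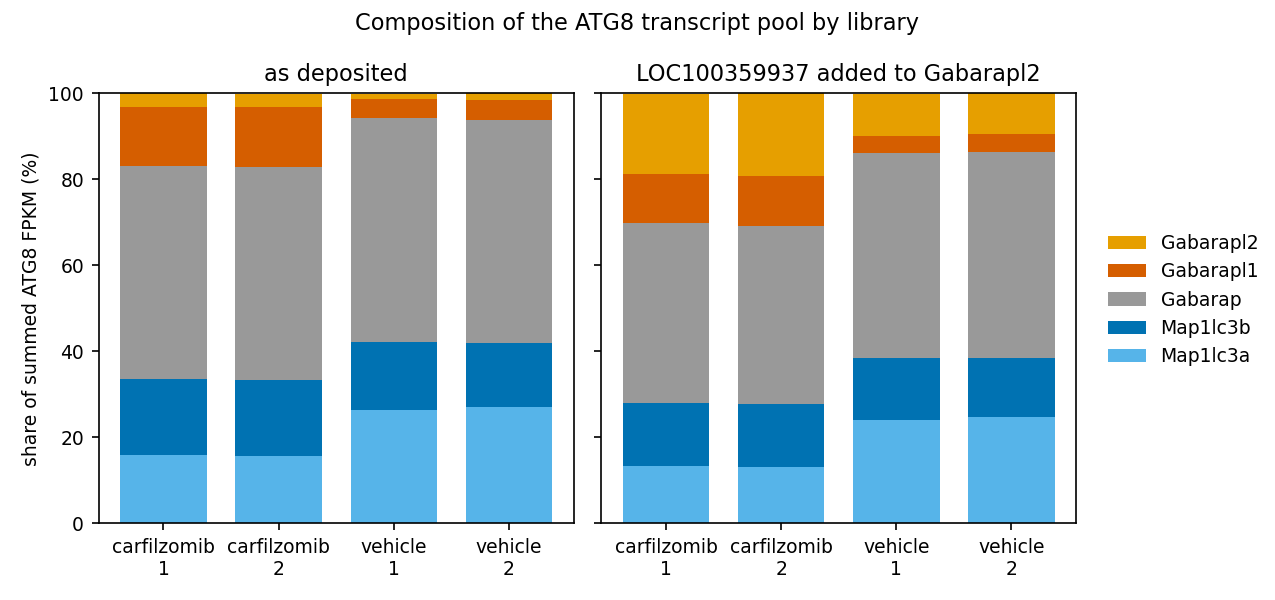
Share (%) of each ATG8 gene in the summed FPKM of the 5 genes, as stacked bars with a bar per library, from the deposited values (left) and with LOC100359937 added to Gabarapl2 (right). Map1lc3a is at 15.8% with carfilzomib, against 26.6% with vehicle, and Gabarapl1 at 13.9% with carfilzomib, against 4.44% with vehicle.

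Ordered by their level per length, the genes stood differently in the 2 groups. With carfilzomib the order was Sqstm1 (865 FPKM), Gabarap (433), Map1lc3b (154), Map1lc3a (138), Gabarapl1 (121), Tax1bp1 (111), Nbr1 (63.8), Gabarapl2 (27.4), Optn (25.1) and Tollip (20.7), all in FPKM. With vehicle it was Gabarap (418 FPKM), Map1lc3a (213), Sqstm1 (177), Map1lc3b (123), Tax1bp1 (58.2), Gabarapl1 (35.6), Nbr1 (32.9), Tollip (18.1), Optn (16.2) and Gabarapl2 (11.8). Among neighbours, Gabarapl1 and Nbr1 overlapped with vehicle, at 33.2 and 38.0 FPKM and at 34.3 and 31.5 FPKM. No other neighbours overlapped in either group. A level per length rests on the gene length the authors divided by, and for Gabarapl2 on how its reads were shared out. The place of Gabarapl2 in the order changes with that. With the FPKM of LOC100359937 added, it would be at 198 FPKM with carfilzomib, above Map1lc3b. With vehicle it would be at 84.8 FPKM, above Tax1bp1.

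In the authors' deposited table of their own DESeq2 comparison, which lists genes with q-values up to 0.0499, 8 of the 10 genes are listed, and Tollip and Gabarap are not. Of all genes tested here, 41.7% are listed in the authors' deposited table. The authors' deposited table gives log2 fold changes of 2.28 for Sqstm1, 1.74 for Gabarapl1, 1.19 for Gabarapl2 and -0.66 for Map1lc3a.

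Genes that work beside these 10 were followed in 5 lists, chosen with earlier results of these data known. Of 19 tested genes for other selective autophagy receptors 10 rose (52.6%), 5 fell (26.3%) and 4 missed the threshold, where 30.6% of all genes tested rose and 30.1% fell. The median was 0.32 on the log2 scale against 0.00 over all genes. Bnip3, a mitophagy receptor of the outer mitochondrial membrane, was at 154 and 163 CPM with carfilzomib and at 65.2 and 63.7 CPM with vehicle, a log2 fold change of 1.30 (adjusted p = 1.63e-11 in edgeR). Ccpg1, a receptor for the endoplasmic reticulum whose row also has decimal counts, rose by 0.79 on the log2 scale. Smurf1, a ubiquitin ligase, was at 69.2 and 71.5 CPM with carfilzomib and at 97.2 and 98.2 CPM with vehicle, with a log2 fold change of -0.47 and an edgeR adjusted p of 2.01e-06. The count of genes that fell in this list was 2 with DESeq2, and 2 without either carfilzomib library or without vehicle replicate 1. Calcoco2, which encodes the receptor NDP52, had 1 read in carfilzomib replicate 1 and 0 in the other 3 libraries, and was not tested.

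Of 13 genes for the machinery that cuts ATG8 proteins and joins them to the membrane, 7 rose, 0 fell and 6 missed the threshold. The share called was 53.8%, below the 60.7% of all genes, with 53.8% higher against 30.6% and 0 lower against 30.1%. The median log2 fold change of the list was 0.26. Atg4a, an ATG4 protease, was at 26.6 and 28.0 CPM with carfilzomib and at 11.7 and 13.2 CPM with vehicle, a log2 fold change of 1.13 (adjusted p = 4.17e-08 in edgeR). Atg16l2, a relative of the ATG16L1 scaffold of the joining enzyme, was at 24.0 and 26.9 CPM with carfilzomib and at 11.6 and 12.2 CPM with vehicle, a log2 fold change of 1.09.

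Of 20 genes for kinases and partners of the receptors, 8 rose, 4 fell and 8 missed the threshold. The 12 called were 60% of the list, close to the 60.7% of all genes, with 40% higher against 30.6% and 20% lower against 30.1%. The median log2 fold change of the list was 0.11. Tbk1, the kinase that phosphorylates optineurin and p62, was at 84.9 and 82.7 CPM with carfilzomib and at 32.8 and 32.0 CPM with vehicle. Its log2 fold change was 1.37 (SE 0.06), adjusted p = 7.29e-11 in edgeR. Keap1, which p62 binds, was at 112 and 108 CPM with carfilzomib and at 48.5 and 49.7 CPM with vehicle, a log2 fold change of 1.17. Map3k3, a kinase that binds the PB1 domain of its partners, had a log2 fold change of -0.14 and an edgeR adjusted p of 0.0393, a call kept in 3 of 11 alternatives. It was lost without any 1 of the 4 libraries, at edgeR adjusted p from 0.0643 to 0.311, and with DESeq2 (adjusted p = 0.194), library size alone (0.114), no filter on low counts (0.0503) and the replicate block (0.0807). Prkcz and Tnfaip3, below the mean of 10 CPM set for named genes, fell further, with log2 fold changes of -0.80 and -0.79. Their edgeR adjusted p were 0.00658 and 9.89e-05. The count of genes that fell in this list was 1 with DESeq2, and 2 without either carfilzomib library or without vehicle replicate 1.

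Of 16 genes whose proteins bind ATG8 or act with it in autophagosome transport and fusion, 10 rose (62.5%), 2 fell (12.5%) and 4 missed the threshold, against 30.6% higher and 30.1% lower over all genes. The median log2 fold change of the list was 0.33. Tbc1d15 and Tbc1d17, related regulators of RAB7 with an LIR, had log2 fold changes of 1.03 and 0.97, with edgeR adjusted p of 2.99e-10 and 8.21e-09. Mapk8ip1, a motor scaffold that binds LC3, was at 41.7 and 43.9 CPM with carfilzomib and at 62.2 and 64.6 CPM with vehicle, a log2 fold change of -0.57. The count of genes that fell was 1 with DESeq2 and 1 without carfilzomib replicate 1.

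Of 19 transcription factors known to act on genes of this kind and of their other targets, 10 rose (52.6%), 3 fell (15.8%) and 6 missed the threshold, beside 30.6% higher and 30.1% lower over all genes. The count that fell was 1 with DESeq2, and 2 without carfilzomib replicate 2 or without vehicle replicate 1. The median log2 fold change of the list was 0.17. Srxn1, an NRF2 target whose row also has decimal counts, was at 153 and 159.7 CPM with carfilzomib and at 54.9 and 62.4 CPM with vehicle, a log2 fold change of 1.41 (adjusted p = 6.69e-11 in edgeR). Ctsd, the lysosomal protease cathepsin D, was at 1410.4 and 1405 CPM with carfilzomib and at 522 and 548 CPM with vehicle, a log2 fold change of 1.40 (adjusted p = 6.37e-13 in edgeR). The other targets in the list did not move alike. On the log2 scale Gclm rose by 1.27, Txnrd1 by 0.53, Nqo1 by 0.38 and Lamp1 by 0.15. Gclc (-0.07), Hmox1 (-0.06) and Mcoln1 (0.04) missed the threshold. Among the factors, Bach1 rose by 0.65, Nfe2l1 and Nfe2l2 by 0.24 each and Tfe3 by 0.20. Tfeb (-0.31) and Foxo1 (-0.34) fell, and Foxo3 (0.17), Mitf (0.13) and Zkscan3 (-0.03) missed the threshold. Atf4, which drives autophagy genes during amino acid shortage, was at 229 and 226 CPM with carfilzomib and at 367 and 367 CPM with vehicle, a log2 fold change of -0.69 (adjusted p = 1.2e-09 in edgeR).

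**Figure D4:**
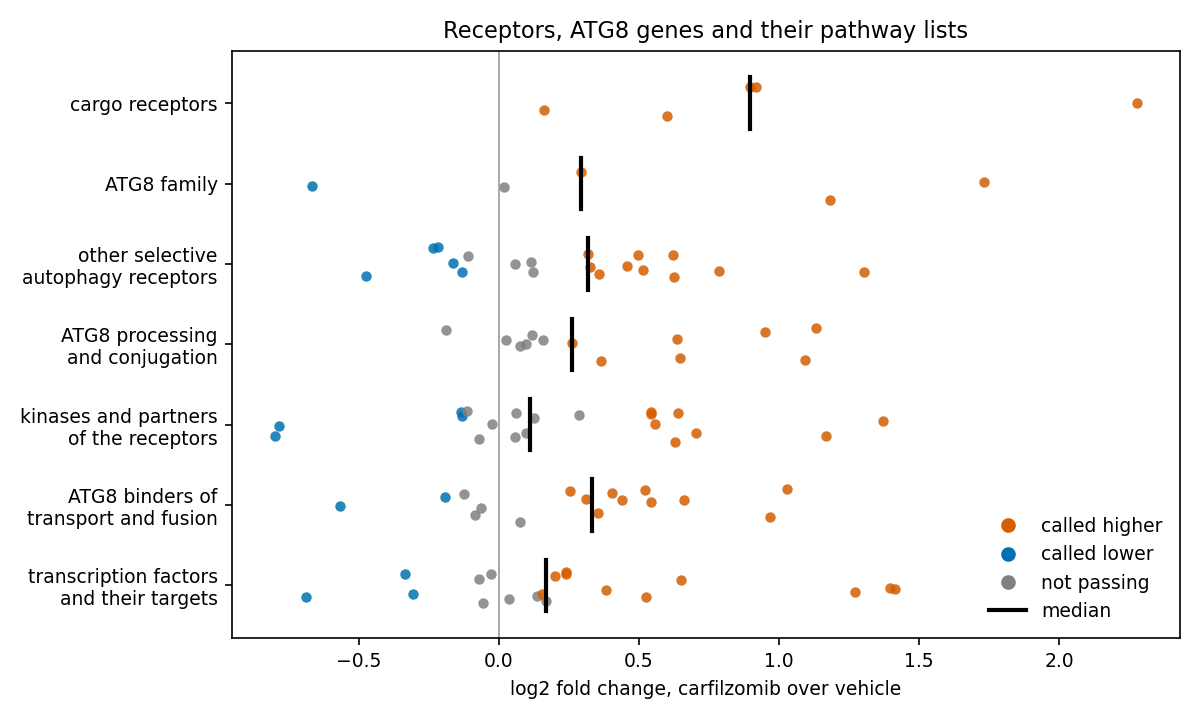
Log2 fold change of carfilzomib over vehicle for the receptors, the ATG8 genes and 5 pathway lists, with a point per tested gene coloured by its call and a black bar at the median of each row. The receptors have a median of 0.90, the ATG8 genes of 0.29, and the lists medians between 0.11 and 0.33.

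The genes closest to 3 of the members in pattern were found by the distance between centred log2(CPM + 1) values over the 4 libraries, among 10000 other tested genes of at least 10 CPM. With 4 libraries in 2 groups, likeness mainly means a change of like size. Closest to Sqstm1 were Psmb3 (distance 0.029), Nol3 (0.058), Ptprn (0.088), Myh14 (0.091) and Atl1 (0.096), with log2 fold changes from 2.26 to 2.45. Closest to Gabarapl1 were Hspb8 (distance 0.088), Sumf2 (0.098), Zwint (0.099), Chpf2 (0.0998) and Lrrc14b (0.104), with log2 fold changes from 1.64 to 1.79. Closest to Map1lc3a were Zfp574 (distance 0.020), Ppp2r3b (0.024), Evl (0.028), Wtip (0.029) and Cgref1 (0.030), with log2 fold changes from -0.73 to -0.67. Of the genes named as closest, Nol3, Myh14 and Zwint have rows with decimal counts.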

How the data were processed

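Bulk RNA was sequenced from cultured neonatal rat ventricular myocytes, as 2 carfilzomib and 2 vehicle libraries grouped by sample title. Control columns were taken as vehicle, the only control in the labels. The authors deposited un-normalised estimated counts for each gene together with FPKM values, per the file headers, and FPKM served here for levels per length. Decimals were found in 28.5% to 28.9% of the counts of a library. The authors' deposited comparison gives log2 fold changes with p-values and q-values from DESeq2, per the file headers. Per the submitters' processing notes the tools included cutadapt 2.0, HISAT, Bowtie2 and featureCounts 1.6.0 with the build Rnor_6.0; their roles and the strand setting are not given in these sources. Another 10 columns with values were left unused.

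Counts were rounded and tested with edgeR 4.0.16 in R 4.3.3: filterByExpr (minimum count 10, minimum total 15), TMM, robust quasi-likelihood F test, Benjamini-Hochberg adjustment over 14519 genes. Each SE was derived from the estimate and its F statistic, and intervals are 95%. Libraries of a group differed by more than sampling noise (chi-square per degree of freedom 2.99 for carfilzomib and 3.32 for vehicle). Shares of the ATG8 pool and ratios of gene pairs were compared over libraries with exact permutation tests, and sums of FPKM are given without a test. Alternatives were DESeq2 1.42.0, limma-voom (limma 3.58.1), RLE factors, library size alone, no or a stricter count filter, a replicate block, each library left out, and limma on log2(FPKM + 0.1) or log2(FPKM + 1). The edgeR fit was tested on simulated counts and the motif search on a built sequence. The members and lists were chosen with earlier results of these data known. Named from each list, at a mean of at least 10 CPM, are 2 called genes that moved most in the commoner direction and 1 that moved most the opposite way. Protein sequences were not used here.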

Additional observations from a re-analysis of the deposited data

How the results depend on the processing

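The direction and call of Sqstm1, Nbr1, Optn, Tax1bp1, Map1lc3a, Map1lc3b, Gabarapl1 and Gabarapl2 held under all 13 alternatives run for each, and for Gabarapl2 also with the summed rows; Sqstm1 ranged from 2.21 to 2.35 and Gabarapl1 from 1.64 to 1.84 on the log2 scale. Tollip was at 0.17 (adjusted p 0.111) with DESeq2, at 0.16 (0.0523) with the replicate block, and between 0.15 and 0.18 with a library left out. Gabarap ranged from -0.027 to 0.066 with a library left out and did not pass in any run. The count of genes that fell among other receptors was 2 with DESeq2, 3 with library size alone or the replicate block, and 2 to 4 with a library left out. Among kinases and partners it was 1, 2 and 2 in those settings and 2 to 3 with a library left out. Among transport and fusion genes it was 1 with DESeq2 and 1 to 2 with a library left out, and among transcription factors and targets 1 with DESeq2. Over all genes the replicate block called 4146 higher and 4083 lower. What a shared replicate number stands for is not labelled. Same-numbered libraries did not deviate together over genes (r = -0.00011 over 14519 genes). With 2 libraries per group that value cannot show whether they shared an animal or batch. The block changed no call of the 10 genes but that of Tollip. Library size alone moved the median of all genes by 0.03.

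Differences in the share of the ATG8 pool, carfilzomib minus vehicle in percentage points, depended on the measure. With CPM they were -11.3 for Map1lc3a, 1.18 for Map1lc3b, -5.45 for Gabarap, 13.4 for Gabarapl1 and 2.14 for Gabarapl2. With the FPKM of LOC100359937, scaled to that row's own length, added to Gabarapl2, they were 0.657 for Map1lc3b, -6.24 for Gabarap, 7.55 for Gabarapl1 and 9.24 for Gabarapl2. With both changes they were -0.53 for Map1lc3b, -7.17 for Gabarap, 11.2 for Gabarapl1 and 7.79 for Gabarapl2, so the sign for Map1lc3b depends on how length and split reads are treated. The sums with LOC100359937 were chosen after seeing the data. With 2 libraries per group no exact test of a single value can go below 0.333.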

Other observations

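RefSeq (GRCr8) names 11 pseudogenes after Gabarap, Gabarapl2, Map1lc3b, Sqstm1 or a relative of them. Of these, 1 has a row in the expression table, Gabarapl3 as LOC100359937. With 148 and 149 CPM in carfilzomib libraries and 65.5 and 64.8 CPM in vehicle libraries, it held more reads than Gabarapl2 itself in every library. It rose by 1.19 on the log2 scale (SE 0.05, adjusted p = 2.57e-11 in edgeR). Which of the 2 rows the reads came from cannot be told apart from the deposited values.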
